A study of Mus musculus with 24 samples.

Results

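The TIF1 family of the mouse consists of the genes Trim24, Trim28, Trim33 and Trim66, and all 4 were found among the 55487 gene identifiers of the count tables of 24 RNA-seq libraries. The members were chosen by name, through the Ensembl identifiers that the GENCODE M21 annotation gives to the 4 symbols. TIF1 proteins are nuclear co-regulators that join a tripartite motif (B-boxes and a coiled coil, in most members behind a RING finger) to a PHD finger and a bromodomain, the modules with which they read histone tails. TRIM28, also called KAP1, is the corepressor that KRAB zinc finger proteins bring to endogenous retroviruses, where it recruits the histone methyltransferase SETDB1 and HP1 proteins, and embryonic stem cells depend on it to keep these elements silent. TRIM24 is a co-regulator of retinoic acid receptors and a ubiquitin ligase for p53, TRIM33 binds SMAD proteins of the TGF-beta and Nodal pathway and acts on SMAD4, and TRIM66 is the member known mainly from the testis.

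The cells were KH2, a line of mouse embryonic stem cells, and the titles of all of them, controls included, carry TRE_DUX, a DUX transgene behind a promoter that responds to doxycycline (DOX). DUX is a transcription factor that moves such cells toward a state like that of the embryo at the 2-cell stage (2C). By their titles the libraries fall into 12 groups of 2, since 6 lines were each sampled without DOX and after 16 h of DOX. One set of 8 libraries holds the lines WT and DUXBL-KO. The other, of 16, holds both WT lines marked pLV2 (line 1 and line 2) together with the knockouts TRIM24-KO and TRIM33-KO. What pLV2 stands for is not given in the labels, which also do not say which WT pLV2 line goes with which knockout, how the genes were disrupted, or whether the libraries of a group came from separate cultures, so the p-values measure only the spread between these libraries. Each knockout is 1 line, and a knockout and its line of cells cannot be told apart. The cells were grown on gelatin or on feeder fibroblasts.

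Libraries held between 11784696 and 19136869 counts in genes. All 14 pluripotency markers were detected in all libraries, with a summed level of 4845 to 6502 CPM, the counts of a gene scaled to the size of its library. Their levels were not constant in the pLV2 set, where 3 rose and 8 fell with DOX in WT pLV2 (78.6% beside 34.3% of all genes), 2 rose and 6 fell in TRIM24-KO (57.1% beside 16.4%) and 2 rose and 8 fell in TRIM33-KO (71.4% beside 36.6%). The 15 fibroblast markers, of which 8 passed the filter on low counts in the pLV2 set, summed to 69.4 to 223 CPM. With DOX 3 of the 8 rose and 2 fell in WT pLV2 (62.5% of them), 2 rose and 1 fell in TRIM24-KO (37.5%) and 3 rose and 1 fell in TRIM33-KO. Of the 15, Col3a1, Dcn, Postn and Lum had 0 to 3 counts in each library and Col1a1 had 13 to 95. The part of the changes in both marker lists in the DOX results was not tested. The 12 markers of the 2C state summed to 0.374 to 6.74 CPM without DOX and to 819 to 10092 CPM with DOX. Counts of the single gene CT010467.1 made up 30.4% of all counts in genes in replicate 2 of TRIM24-KO with DOX and 12.9% in replicate 2 of TRIM33-KO with DOX. The treatment tag went against the title in 8 pLV2 libraries. The titles were followed, and Dux (Duxf3) had 0 to 2 counts in the libraries without DOX in the title and 20 to 110 in those with it.

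The promoters of 3 members are shown to set that of Trim28, the most abundant, beside those of Trim24 and of Trim66, the least abundant. Each line gives the 250 bases upstream of a transcript start, 5′ to 3′, from RefSeq on GRCm38.p6, at chr7:13023902-13024151 on the plus strand for Trim28, chr6:37870561-37870810 on the plus strand for Trim24 and chr7:109508135-109508384 on the minus strand for Trim66. Capitals mark GC boxes (GGGCGG, read on both strands) and CCAAT boxes (CCAAT, read on both strands).
Trim28: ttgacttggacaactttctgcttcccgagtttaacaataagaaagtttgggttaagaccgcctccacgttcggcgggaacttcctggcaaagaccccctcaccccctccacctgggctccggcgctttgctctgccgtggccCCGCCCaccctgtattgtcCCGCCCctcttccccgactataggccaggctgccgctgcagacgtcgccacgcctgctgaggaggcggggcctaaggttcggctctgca
Trim24: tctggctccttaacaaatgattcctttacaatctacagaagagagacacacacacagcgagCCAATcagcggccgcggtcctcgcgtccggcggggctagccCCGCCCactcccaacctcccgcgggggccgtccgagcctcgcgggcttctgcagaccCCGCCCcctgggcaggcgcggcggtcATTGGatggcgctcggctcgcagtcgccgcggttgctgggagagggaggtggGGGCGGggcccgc
Trim66: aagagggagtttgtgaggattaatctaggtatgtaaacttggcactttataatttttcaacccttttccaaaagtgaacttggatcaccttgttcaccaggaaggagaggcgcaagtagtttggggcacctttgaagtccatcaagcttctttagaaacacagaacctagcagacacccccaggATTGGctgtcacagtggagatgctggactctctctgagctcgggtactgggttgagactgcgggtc
The Trim28 stretch held 2 GC boxes and no CCAAT box, that of Trim24 held 3 GC boxes and 2 CCAAT boxes, and that of Trim66 held 1 CCAAT box and no GC box. Among 32851 mouse promoter stretches of the same length, 32.7% held a GC box and 33.8% a CCAAT box. The G and C content was 62.0% for Trim28, 69.6% for Trim24 and 47.2% for Trim66, beside a median of 52.4% over all of them. RefSeq lists a second start for Trim24 within the gene, whose upstream window held neither box. The Trim28 window lies within the GENCODE span of the gene, which begins at 12999114, so it is upstream of the RefSeq start only. The promoter of Trim33 is not shown.

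In these cells the family was dominated by Trim28. Per kilobase of exon, Trim28 had a median of 391 CPM over the 24 libraries, Trim24 had 20.7, Trim33 had 13.0 and Trim66 had 0.157. Trim28 made up 88.6% to 95.5% of the family's summed level per length in each library, and Trim66 at most 0.113%. Trim66 was close to the limit of detection, with 0 to 72 counts per library, whereas the least covered libraries still held 11225 counts of Trim28, 947 of Trim24 and, in TRIM33-KO, 156 of Trim33. The plot of CPM by library shows the 4 genes on their own scales.

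**Figure D1:**
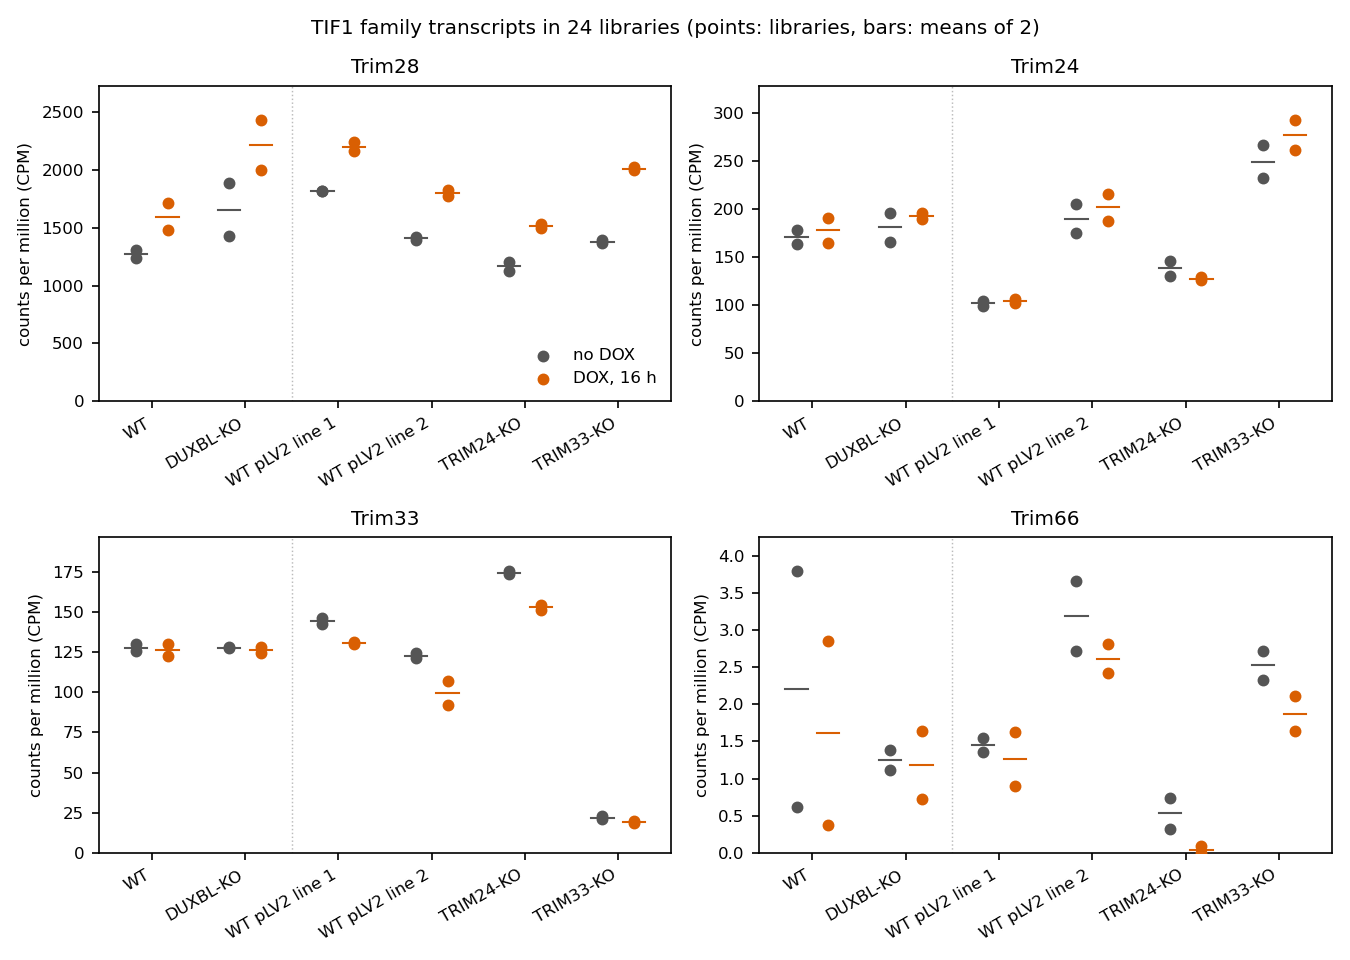
CPM (vertical axes, each from 0) of Trim28, Trim24, Trim33 and Trim66 in 24 libraries, by line (horizontal axes), without DOX in grey and with 16 h of DOX in orange; points are libraries and bars are means of 2. Trim28 is higher with DOX in all 6 lines, Trim33 lies between 18.3 and 22.6 CPM in TRIM33-KO, and Trim66 stays under 4 CPM.

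Trim28 lies on chromosome 7 (ENSMUSG00000005566.14, GRCm38 12999114 to 13031035, plus strand). From the libraries without DOX to those with DOX, its CPM went from 1312 and 1239 to 1715 and 1478 in WT, and from 1889 and 1428 to 2434 and 2003 in DUXBL-KO. The values went from 1822 and 1817 to 2163 and 2241 in WT pLV2 line 1, from 1398 and 1419 to 1830 and 1772 in line 2, from 1128 and 1203 to 1537 and 1498 in TRIM24-KO, and from 1392 and 1369 to 2022 and 1999 in TRIM33-KO. For each of the 6 lines both libraries with DOX were above both libraries without it. Of 19021 genes compared in the same way, 21.9% were higher without overlap in WT, 22.4% in DUXBL-KO, 31.9% in line 1, 27.5% in line 2, 25.7% in TRIM24-KO and 30.5% in TRIM33-KO. In the same comparison 8.29% were higher in all 6 lines and 2.80% were lower in all 6. By group mean Trim28 was highest in DUXBL-KO with DOX and WT pLV2 line 1 with DOX, whose libraries overlapped, and lowest in TRIM24-KO without DOX.

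Trim28 rose with DOX in the pLV2 lines. The log2 fold change was 0.28 ± 0.04 (SE) in WT pLV2, taken over both lines, with an adjusted p of 3.97e-05 (edgeR's quasi-likelihood test, Benjamini-Hochberg over all genes, threshold 0.05). It was 0.40 ± 0.06 in TRIM24-KO (adjusted p = 5.10e-05) and 0.50 ± 0.06 in TRIM33-KO (adjusted p = 2.33e-06). DOX moved 34.3% of all tested genes past the threshold in WT pLV2, 16.4% in TRIM24-KO and 36.6% in TRIM33-KO. In the WT and DUXBL-KO set, where the spread between libraries was wider, the same direction did not pass the test. The log2 fold change was 0.32 ± 0.15 in WT (adjusted p = 0.547) and 0.43 ± 0.15 in DUXBL-KO (adjusted p = 0.246). In that set DOX moved 2.93% of genes in WT and 4.91% in DUXBL-KO, and both values passed when genes of low count were kept in the fit (adjusted p = 0.0178 and 3.76e-04). With the replicate number as a block the value in DUXBL-KO passed (0.44, adjusted p = 0.0163) and that in WT did not (0.31, adjusted p = 0.0900). With DOX the 2C markers summed to 9146 and 10092 CPM in the libraries of TRIM33-KO, where line 2 had 5203 and 7036, TRIM24-KO had 1977 and 3038, and line 1 had 1853 and 2268, and the part of this in the size of the Trim28 response was not tested. In bulk libraries more cells in a state and more RNA per cell cannot be told apart. The response of Trim28 was 0.22 ± 0.07 larger in TRIM33-KO than in WT pLV2 on the log2 scale, and this interaction did not pass the test (adjusted p = 0.226). DESeq2 called it, with 0.26 and an adjusted p of 3.30e-03.

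Trim24 did not pass the test for DOX in any line. It lies on chromosome 6 (ENSMUSG00000029833.17, GRCm38 37870811 to 37966296, plus strand). The libraries without and with DOX held 178 and 164 beside 191 and 165 CPM for WT, and 196 and 166 beside 196 and 189 for DUXBL-KO. They held 105 and 98.7 beside 106 and 102 for WT pLV2 line 1, 205 and 175 beside 215 and 188 for line 2, 146 and 131 beside 129 and 126 for TRIM24-KO, and 232 and 266 beside 262 and 293 for TRIM33-KO. The arms overlapped in 5 of 6 lines, and TRIM24-KO with DOX lay below TRIM24-KO without it, as 28.7% of all genes did. The log2 fold change with DOX was 0.02 in WT pLV2 (95% interval -0.12 to 0.17), -0.09 in TRIM24-KO (-0.30 to 0.11) and 0.11 in TRIM33-KO (-0.08 to 0.31). By level the libraries of TRIM33-KO were the highest and those of WT pLV2 line 1 the lowest, and the groups of WT, DUXBL-KO and WT pLV2 line 2 formed a run in which each overlapped the next.

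Trim33 was lower with DOX in WT pLV2 taken over both lines, while in single pLV2 lines the test did not always pass. It lies on chromosome 3 (ENSMUSG00000033014.12, GRCm38 103279293 to 103358775, plus strand). From the arm without DOX to the arm with it, CPM went from 146 and 142 to 132 and 130 for WT pLV2 line 1, from 121 and 124 to 92.3 and 107 for line 2, from 174 and 175 to 151 and 155 for TRIM24-KO, and from 21.3 and 22.6 to 19.6 and 18.3 for TRIM33-KO. The arms did not overlap in any of these 4 lines. Of all genes, 28.1% were lower without overlap in line 1, 31.0% in line 2, 28.7% in TRIM24-KO and 36.4% in TRIM33-KO, beside 19.5% in WT and 21.0% in DUXBL-KO. In WT and DUXBL-KO all 8 values lay between 123 and 130 CPM and the arms overlapped. The log2 fold change with DOX was -0.26 ± 0.05 in WT pLV2 (adjusted p = 3.39e-04), -0.17 ± 0.07 in TRIM24-KO (adjusted p = 0.0908), which of the alternatives run passed only without CT010467.1 (-0.20, adjusted p = 0.0446), and -0.25 ± 0.09 in TRIM33-KO (adjusted p = 0.0331). The last call was lost with RLE size factors (-0.18, adjusted p = 0.132), with DESeq2, when only the compared groups were fitted and without any 1 of the 4 libraries (-0.30 to -0.13). The value was -0.18 in WT pLV2 line 1 alone (adjusted p = 0.0750) and -0.34 in line 2 alone (adjusted p = 9.70e-04). In WT and DUXBL-KO the value was -0.02 (95% interval -0.21 to 0.16) and -0.01 (-0.19 to 0.18). Whether the pLV2 lines differ in this from the other set was not tested, since the sets were fitted apart.

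Trim66, on the minus strand of chromosome 7 (ENSMUSG00000031026.15, GRCm38 109449006 to 109508134), had too few counts for most comparisons. Counts went from 9 and 71 to 7 and 59 with DOX for WT, and from 23 and 29 to 28 and 15 for DUXBL-KO. Among the pLV2 lines they went from 19 and 23 to 11 and 20 for line 1, from 72 and 42 to 34 and 30 for line 2, from 52 and 46 to 17 and 18 for TRIM33-KO, and from 5 and 12 to 1 and 0 for TRIM24-KO. By group mean TRIM24-KO was the lowest line with and without DOX, although replicate 1 of WT had as few counts as TRIM24-KO without DOX. The arms did not overlap in TRIM24-KO and TRIM33-KO, both lower with DOX in CPM, as were 28.7% and 36.4% of all genes without overlap. In TRIM24-KO the summed count fell from 17 to 1, a ratio of 10.2 after scaling to library size (95% interval 1.59 to 425, counting error only). The test of this fall had an adjusted p of 0.0362 and was lost with DESeq2 (adjusted p = 0.127) and without replicate 2 of TRIM24-KO without DOX or either replicate with DOX (log2 fold changes of -2.43, -5.95 and -2.48, adjusted p between 0.0803 and 0.216). No other line passed the test for DOX, with log2 fold changes of -0.29 in WT pLV2 (95% interval -0.81 to 0.23) and -0.48 in TRIM33-KO (-1.20 to 0.25).

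**Figure D2:**
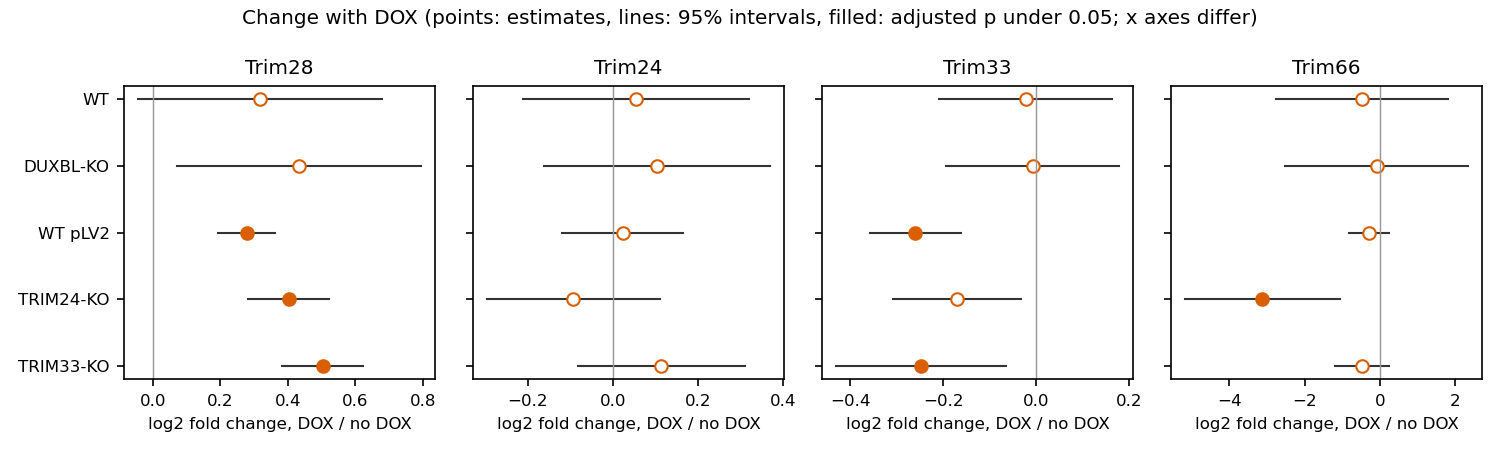
Log2 fold change with DOX (horizontal axes, scales differ) of the 4 genes in WT, DUXBL-KO, WT pLV2 (both lines), TRIM24-KO and TRIM33-KO; points are estimates, lines are 95% intervals and filled points have an adjusted p under 0.05. Trim28 is above 0 in all 5 rows and the interval of Trim24 includes 0 in all 5. Trim33 is below 0 in the 3 pLV2 rows, with filled points for WT pLV2 and TRIM33-KO and an open point for TRIM24-KO.

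The targeted transcripts were examined next. In the line labelled TRIM33-KO, Trim33 fell by 2.61 on the log2 scale against WT pLV2 without DOX (adjusted p = 3.22e-13) and by 2.59 with DOX (adjusted p = 1.79e-12), and 156 to 446 counts per library remained. In the line labelled TRIM24-KO, Trim24 was between the WT lines: its libraries lay above all 4 of WT pLV2 line 1 and below all 4 of line 2. Against their mean it did not pass the test, at -0.03 ± 0.08 (adjusted p = 0.825) before and -0.14 ± 0.08 (adjusted p = 0.187) after DOX. With line 1 as the only reference Trim24 was 0.42 higher without DOX (adjusted p = 2.79e-03) and 0.32 higher with it (adjusted p = 0.0173). With line 2 it was lower, at -0.47 (adjusted p = 4.78e-04) and -0.61 (adjusted p = 6.01e-05). Gene counts cannot show a small lesion that leaves the transcript in place. In the line labelled DUXBL-KO, Duxbl1 was not lower by the test: it had 16 and 6 counts without DOX beside 24 and 6 in WT, and 169 and 91 with DOX beside 139 and 59 (log2 fold changes of -0.84, adjusted p = 0.841, and 0.47, adjusted p = 0.854). Duxbl1 has near-identical copies, and counts per gene do not show a small lesion, so these values do not check the label. No member passed edgeR's test between this line and WT, without DOX (0.0388% of genes called) or with DOX (0.0720%). Trim28 was there at 0.35 ± 0.15 (adjusted p = 0.562) and 0.47 ± 0.15 (adjusted p = 0.409). Both passed when genes of low count were kept in the fit (0.37, adjusted p = 0.0147, and 0.46, adjusted p = 3.92e-04). With the replicate number as a block the second passed as well (0.47, adjusted p = 0.0339). The block raised the number of genes called between the lines from 7 to 440 without DOX and from 13 to 485 with DOX.

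The other members were then compared between each TRIM knockout line and WT pLV2, to see whether one TIF1 gene is higher where another is lost. A loss of transcript was measured only for Trim33 in TRIM33-KO, and the line labelled TRIM24-KO showed none for Trim24 against the mean of both WT lines, so its values do not show what goes with a loss of Trim24. In TRIM33-KO, Trim24 was higher and Trim66 did not pass the test, and in TRIM24-KO, Trim33 was higher while Trim28 and Trim66 were lower. The size of each difference depended on the WT line used, and the WT lines themselves differed. Line 2 was above line 1 in Trim24 by 0.89 ± 0.09 without DOX (adjusted p = 2.10e-06) and in Trim66 by 1.13 ± 0.32 (adjusted p = 0.0109), and below it in Trim28 by 0.38 ± 0.06 (adjusted p = 5.42e-05) and in Trim33 by 0.24 ± 0.06 (adjusted p = 6.53e-03). All 4 members differed in the same directions with DOX. Without DOX the call for Trim33 was lost without replicate 1 or 2 of line 1 or replicate 1 of line 2 (-0.23 to -0.19). It was also lost when genes of low count were kept in the fit (-0.21, adjusted p = 0.0578). The call for Trim66 without DOX was lost without replicate 1 of either line (1.07 and 0.92) and with DESeq2 (adjusted p = 0.0504). With DOX the call for Trim66 was lost without replicate 1 of line 1 (0.67) or either replicate of line 2 (0.92 and 1.14) and with DESeq2 (adjusted p = 0.0840). The lines differed in 38.3% of all genes without DOX and 40.1% with DOX.

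Trim24 in TRIM33-KO stood at 232 and 266 CPM without DOX, above the libraries of both WT lines given earlier. Against the mean of both lines it was higher by 0.84 ± 0.08 (adjusted p = 1.86e-06) and, with DOX, by 0.93 ± 0.08 (adjusted p = 8.54e-07), where 23.9% and 26.8% of genes were called. Against line 1 alone it was 1.28 and 1.39 higher, in comparisons in which 40.9% and 43.1% of genes were called. Against line 2 alone, where 1.52% and 3.57% were called, it was higher by 0.39 ± 0.09 (adjusted p = 0.0427) and 0.46 ± 0.09 (adjusted p = 0.0125). This call was lost without replicate 2 of line 2 (0.29 without DOX and 0.36 with DOX) or without replicate 2 of TRIM33-KO (0.29 and 0.37), and without DOX also when only the compared groups were fitted (adjusted p = 0.115). Of the 8 fibroblast markers tested, 6 were higher and 1 lower in TRIM33-KO than in the mean of both lines without DOX, 87.5% beside 23.9% of all genes, and 3 higher and 1 lower with DOX, where 26.8% of all genes were called. All 15 listed markers summed to 185 and 196 CPM in TRIM33-KO without DOX, 188 and 197 in line 2 and 115 and 125 in line 1. Against line 2 alone, where 1.52% of all genes were called without DOX and 3.57% with DOX, edgeR called 0 of the 8 in either arm, with medians of -0.08 and 0.04. The part of these markers in the difference from the mean of both lines was not tested.

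Trim33 in TRIM24-KO stood at 174 and 175 CPM without DOX, above the 142 and 146 of line 1 and the 121 and 124 of line 2. It was higher than the mean of both by 0.37 ± 0.05 (adjusted p = 3.88e-05) and, with DOX, by 0.46 ± 0.06 (adjusted p = 6.43e-06), in comparisons that called 43.4% and 40.8% of all genes. Against line 1 alone the values were 0.25 (95% interval 0.11 to 0.39) and 0.26 (0.12 to 0.40), and against line 2 alone 0.49 (0.36 to 0.63) and 0.66 (0.52 to 0.81). All 4 passed the test, in comparisons that called 34.0% and 32.2% of genes for line 1 and 48.1% and 46.8% for line 2. The 15 fibroblast markers summed to 69.4 to 93.0 CPM in the TRIM24-KO libraries, 112 to 125 in line 1 and 164 to 197 in line 2, and their part in these differences was not tested. The 22 other genes tested within 1 Mb of Trim33 had a median log2 fold change of 0.10 against the mean of both lines without DOX and 0.06 with DOX.

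Trim28 in TRIM24-KO was lower than in WT pLV2 by 0.48 ± 0.05 without DOX (adjusted p = 8.73e-07) and by 0.35 ± 0.05 with DOX (adjusted p = 2.50e-05), and it was lower against each WT line alone, by 0.67 and 0.50 for line 1 and 0.29 and 0.20 for line 2. In TRIM33-KO without DOX it fell by 0.22 ± 0.05 (adjusted p = 4.03e-03), a call lost without replicate 2 of TRIM33-KO (-0.18, adjusted p = 0.0700), and with 1 WT line as reference the value was -0.41 for line 1 (adjusted p = 2.32e-05), while for line 2 it was -0.03 (adjusted p = 0.925). With DOX Trim28 in TRIM33-KO was at 0.0057 against both lines (adjusted p = 0.952), -0.15 against line 1 (adjusted p = 0.0461) and 0.16 against line 2 (adjusted p = 0.152), the last of which DESeq2 called (0.18, adjusted p = 0.0164). Trim66 in TRIM24-KO had 17 counts over both libraries without DOX, against 156 over the 4 WT libraries, a ratio of WT to TRIM24-KO of 4.57 (95% interval 2.77 to 8.05, counting error only). With DOX the counts were 1 and 95 and the ratio 36.8 (6.45 to 1470). The tests gave adjusted p = 2.63e-04 and 4.90e-05, and both differences also passed against each line alone. Of 25 other genes within 1 Mb of Trim66, 11 were lower and 2 higher in TRIM24-KO without DOX, with a median of -0.32, where 43.4% of all genes were called. Their part in the result for Trim66 was not tested.

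**Figure D3:**
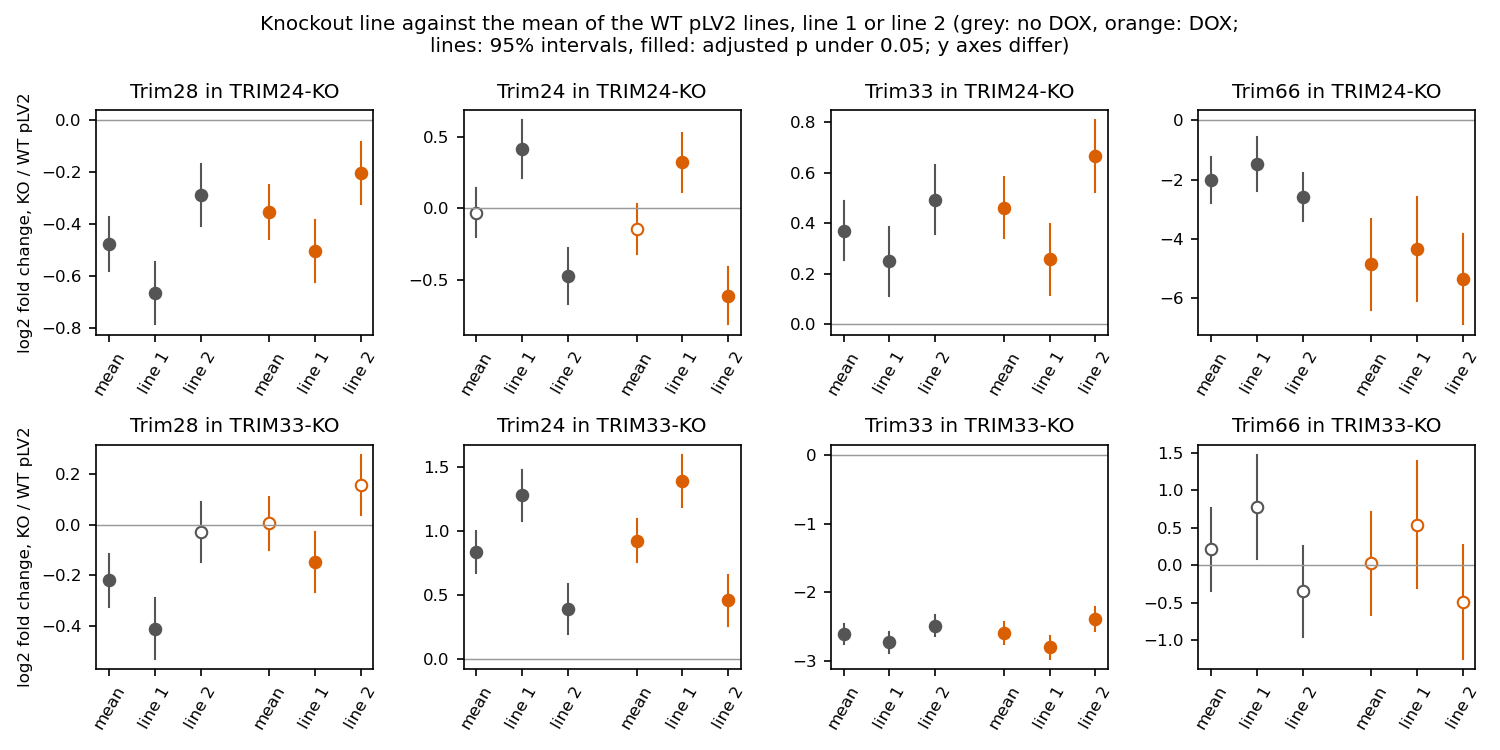
Log2 fold change (vertical axes, scales differ) of the 4 genes in TRIM24-KO (top) and TRIM33-KO (bottom) against the mean of both WT pLV2 lines, line 1 alone or line 2 alone, without DOX in grey and with DOX in orange; lines are 95% intervals and filled points have an adjusted p under 0.05. Trim24 in TRIM24-KO lies above 0 against line 1 and below 0 against line 2, whereas Trim33 in TRIM24-KO and Trim24 in TRIM33-KO lie above 0 against every reference.

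In edgeR no member's DOX response passed the test of a difference between a knockout and its WT, whereas DESeq2 called that of Trim28 in TRIM33-KO, as given above. Such interactions were called for 0.437% of genes in TRIM24-KO and 0.575% in TRIM33-KO. For DUXBL-KO edgeR called 0 genes, 98 genes had an unadjusted p under 0.05, and DESeq2 called 1. Trim66 was at -2.83 in TRIM24-KO (95% interval -5.01 to -0.65, adjusted p = 0.401) and at -0.19 in TRIM33-KO (-1.09 to 0.71). Trim33 was at 0.09 in TRIM24-KO (-0.08 to 0.26) and 0.01 in TRIM33-KO (-0.20 to 0.22), and Trim24 at -0.12 (-0.36 to 0.13) and 0.09 (-0.15 to 0.33). Trim28 was at 0.12 in TRIM24-KO (-0.02 to 0.27) and 0.22 in TRIM33-KO (0.08 to 0.37).

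Per exon length, the sum of Trim24 and Trim33 had a narrower range over the 12 groups than either gene. For Trim33 this rested on TRIM33-KO, at 1.93 and 2.24 CPM per kb. In the other groups Trim33 ran from 10.2 to 17.8, a narrower range than that of the sum. In the WT and DUXBL-KO set Trim33 ran from 12.9 to 13.0 and the sum from 33.1 to 35.5. The sum was 33.1 ± 1.5 CPM per kb in WT and 34.3 ± 2.4 in DUXBL-KO without DOX (SD, n = 2). WT pLV2 line 1 had 26.7 ± 0.8, line 2 had 34.8 ± 2.3, TRIM24-KO had 34.0 ± 1.2 and TRIM33-KO had 31.5 ± 2.9. Over all 12 groups the mean of the sum ran from 25.6 to 35.5, and both lowest values belonged to WT pLV2 line 1. The ratio of Trim24 to Trim33 meanwhile ran from 0.811 in line 1 without DOX to 16.9 in TRIM33-KO with DOX. Over the 16 pLV2 libraries the log2 levels of Trim24 and Trim33 had a Pearson r of -0.82, a description over 4 lines of 4 libraries each, with TRIM33-KO supplying the libraries of lowest Trim33.

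**Figure D4:**
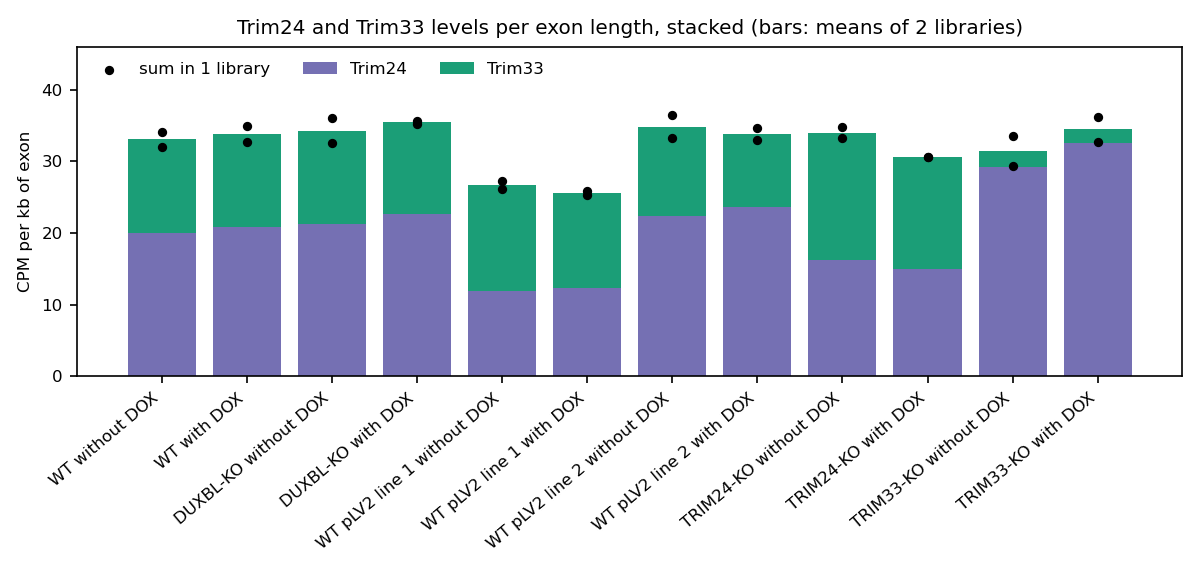
Level per kilobase of exon (CPM per kb, vertical axis from 0) of Trim24 and Trim33, stacked as means of 2 libraries for each of the 12 groups (horizontal axis); black points are the sums in single libraries. Group sums run from 25.6 to 35.5 CPM per kb, while the share of Trim24 is largest in TRIM33-KO and smallest in WT pLV2 line 1 without DOX.

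The difference in Trim24 between lines went with a stretch of chromosome 6. Within 1 Mb of Trim24, 17 other genes were tested, and in WT pLV2 line 2 against line 1 without DOX 12 of them were higher and none lower, with a median of 1.39, above the 0.89 of Trim24 itself. In bins of 10 Mb counted from Trim24, the medians on the side toward the start of the chromosome were up to 1.57, the next 10 Mb had 1.25, and the bin after that had 0.02. From 60 Mb beyond Trim24 onward the medians were again above 0, at 0.24 to 0.56. In TRIM33-KO against line 2 without DOX, the same 17 genes had a median of 0.14, none was called, and Trim24 was at 0.39. In TRIM24-KO against line 1, the 17 genes had a median of 0.87 with 12 higher and none lower, and Trim24 was at 0.42. There the stretch of higher expression reached from the first bin to 70 Mb beyond Trim24, with bin medians of 0.77 to 1.19, and ended with -0.01 in the next bin. The bin with 1.19 held 15 genes and another, with 0.88, held 19. Medians of the 19 other chromosomes lay between -0.12 and 0.02 for TRIM24-KO against line 1, between -0.04 and 0.08 for TRIM33-KO against line 2, and between -0.20 and 0.43 for line 2 against line 1. The part of this stretch in the levels of Trim24 was not tested. For Trim28 and Trim66 the median of chromosome 7 was -0.19 between the lines, and for Trim33 that of chromosome 3 was -0.05.

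**Figure D5:**
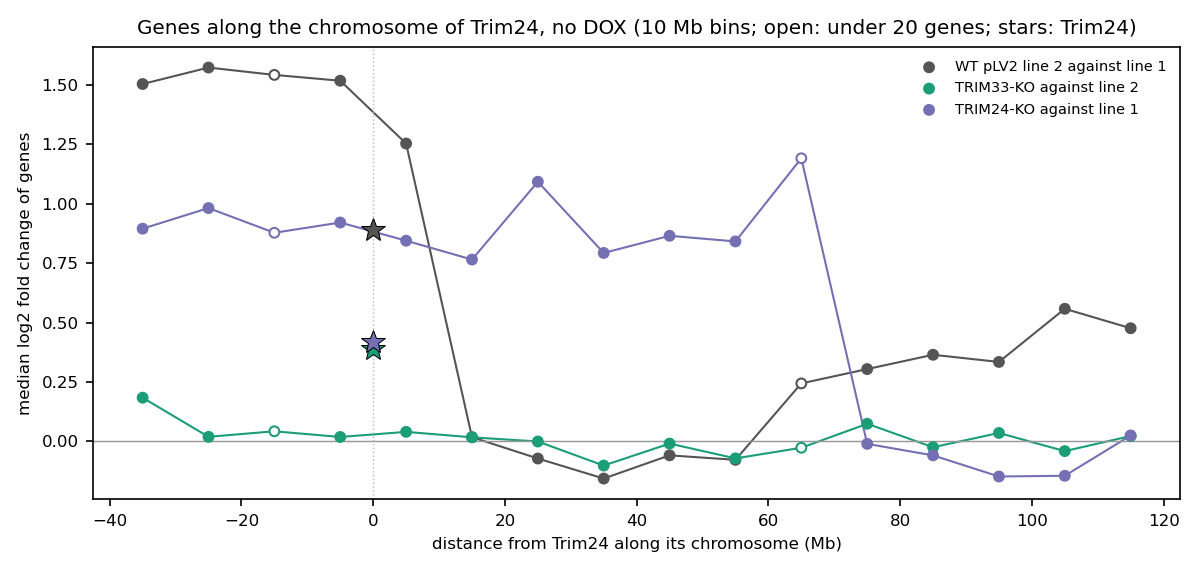
Median log2 fold change (vertical axis) of genes in bins of 10 Mb by distance from Trim24 along its chromosome (horizontal axis, Mb), without DOX, for WT pLV2 line 2 against line 1, TRIM33-KO against line 2 and TRIM24-KO against line 1; open points are bins with under 20 genes and stars are Trim24 itself. In the bins on either side of Trim24 the medians are 1.52 and 1.25 for line 2, 0.92 and 0.84 for TRIM24-KO, and 0.02 and 0.04 for TRIM33-KO, and Trim24 lies at 0.89, 0.42 and 0.39.

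The genes most like each member over the 16 pLV2 libraries were named by the correlation of log2 CPM, among 9661 genes (9662 for Trim66) with a mean of at least 100 counts. For Trim24 they included Zc3h18 (Pearson r = 0.978) and Fancl (0.975), which lie on chromosomes 8 and 11. Those 2 chromosomes also had higher medians in line 2 than in line 1, at 0.30 and 0.40. For Trim28 they were Supt5 (0.977), Pabpc4 (0.971) and Stk35 (0.965), for Trim33 Smox (0.893), Krt42 (0.891) and Gak (0.885), and for Trim66 Exd2 (0.964), Tfcp2l1 (0.959) and Ddc (0.958). Tfcp2l1 is a transcription factor of the pluripotency network. These values describe the pattern over 4 lines and are not tests.

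The partners of TRIM28 were described with a list of 33 genes of KAP1-dependent silencing, all tested. With DOX in WT pLV2, where Trim28 rose, 5 of them rose and 13 fell, 54.5% beside 34.3% of all genes, and the list median was -0.12 beside -0.05 over all genes. In line 1 alone 2 rose and 5 fell, beside 16.3% of all genes called, and in line 2 alone 3 rose and 9 fell, beside 26.8%. Trim28 rose in both TRIM knockout lines too. In TRIM33-KO 6 rose and 14 fell (60.6% beside 36.6%), and in TRIM24-KO 4 rose and 1 fell (15.2% beside 16.4%). In WT and DUXBL-KO edgeR called 0 of the 33, with medians of 0.08 and 0.09, and DESeq2 called 0 and 2. A test of the difference between lines for the list was not run. In WT pLV2 Zfp809, a KRAB zinc finger protein that recognises a retroviral primer site, rose by 1.83 ± 0.08 (adjusted p = 3.10e-12), and Setdb1 rose by 0.24 ± 0.05 (adjusted p = 1.82e-03). Smarcad1, a chromatin remodeler that binds TRIM28, fell by 0.31, Ehmt2, the histone methyltransferase G9a, by 0.35 and Mphosph8, a subunit of the HUSH silencing complex, by 0.26. In TRIM24-KO without DOX, 13 rose and 12 fell against WT pLV2, a share of 75.8% beside 43.4% of all genes. Ehmt2 rose by 1.33 and Smarcad1 by 1.25 there, as did the DNA methyltransferase Dnmt3b by 1.01, while Dnmt3a fell by 1.24. These 4 passed against each WT line alone, as did Morc2a (-0.24 and -0.84), whereas Chd3, at -1.07 against both lines, did not pass against line 1 (-0.27, adjusted p = 0.143) and was at -1.86 against line 2. The WT lines also differed in this list. In line 2 against line 1 without DOX 7 were higher and 13 lower, 60.6% beside 38.3% of all genes. With DOX the share was 63.6% beside 40.1%. In TRIM33-KO without DOX 6 rose and 5 fell against both lines (33.3% beside 23.9%), and against line 2 alone 3 rose and none fell, where 1.52% of all genes were called: Resf1, a regulator of SETDB1 activity (0.67, adjusted p = 5.76e-06), Atf7ip, the SETDB1 cofactor (0.44, adjusted p = 2.13e-03), and Dnmt3b.

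SMAD pathway genes, the setting in which TRIM33 is best known, were more often lower than higher with DOX in WT pLV2 and TRIM33-KO. Of 24 tested, 1 rose and 16 fell in WT pLV2, 70.8% beside 34.3% of all genes, with a median of -0.25 beside -0.05. Smad7, an inhibitory SMAD and target of the pathway, fell by 0.61 ± 0.05 (adjusted p = 7.29e-08), Skil, a corepressor of SMADs, by 0.65 and Smad3 by 0.68, while Id3, a BMP target, rose by 0.81. In line 1 alone 1 rose and 7 fell, where 16.3% of all genes were called, and in line 2 alone 1 rose and 10 fell, beside 26.8%. Of all genes called with DOX, 2816 rose and 3378 fell in WT pLV2, and 2978 rose and 3633 fell in TRIM33-KO. This balance of all genes turned with RLE size factors. It was then 3129 higher and 2758 lower in WT pLV2, and 3499 higher and 2676 lower in TRIM33-KO. In TRIM33-KO 1 rose and 13 fell (58.3% beside 36.6%), and in TRIM24-KO 1 rose and 2 fell (12.5% beside 16.4%). In DUXBL-KO 1 fell (4.17% beside 4.91%), and in WT edgeR and DESeq2 called 0 of the 24, beside 2.93% of all genes in edgeR. In TRIM33-KO without DOX 1 gene rose (Bmpr2, 0.53) and 5 fell against both WT lines, among them Smad7 (-0.59), Nodal (-0.59) and Acvr2b (-0.53), 25.0% beside 23.9% of all genes. Against line 2 alone, where 1.52% of all genes were called, edgeR called 0 of the 24 and DESeq2 called 1, with Smad7 at -0.20 (adjusted p = 0.257) and Nodal at -0.11 (adjusted p = 0.716). With DOX 2 rose and 9 fell in TRIM33-KO against both WT lines (45.8% beside 26.8%). In that comparison 3 of 14 pluripotency markers were higher and 9 lower (85.7%), and 11 of 12 markers of the 2C state were higher and 0 lower. Without DOX 3 pluripotency markers were higher and 6 lower (64.3% beside 23.9%). The part of these markers in the SMAD values was not tested. Against line 2 alone Smad7 and Lefty1, an inhibitor of Nodal, fell with DOX and none rose, beside 3.57% of all genes called. TRIM24-KO against both WT lines had 8 higher and 7 lower without DOX (62.5% beside 43.4%). With DOX it had 11 higher and 4 lower (62.5% beside 40.8%). Line 2 against line 1 had 54.2% called beside 38.3% without DOX and 66.7% beside 40.1% with DOX.

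Retinoid and p53 genes, the setting of TRIM24, numbered 18 in the list, of which 14 passed the filter on low counts in the pLV2 set. In the line labelled TRIM24-KO without DOX 7 of the 14 rose and 4 fell, 78.6% beside 43.4% of all genes, with a median of 0.20 beside -0.02. The pluripotency markers were called as often there, with 3 of 14 higher and 8 lower and a median of -0.31, and 4 of 8 fibroblast markers were lower and none higher, with a median of -0.72. Their part in the values of the list was not tested. Rarg, a retinoic acid receptor, rose by 1.40 ± 0.07 (adjusted p = 1.33e-10), and the p53 targets Cdkn1a and Mdm2 rose by 1.36 and 0.88. The retinoid carrier Crabp1 fell by 2.44, and the receptor Rara fell by 0.43. Rarg, Cdkn1a, Mdm2 and Crabp1 also passed against each WT line alone, with 1.04 and 1.76 for Rarg and 1.09 and 1.63 for Cdkn1a, whereas Rara did not pass against line 1 (-0.21, adjusted p = 0.0775). A high share of the list was not particular to this line. Between the WT lines 71.4% of the list was called without DOX (beside 38.3% of all genes) and 71.4% with DOX (beside 40.1%). TRIM33-KO against both WT lines had 42.9% beside 23.9% without DOX and 64.3% beside 26.8% with DOX. With DOX in WT pLV2 the receptor genes Rxra and Rxrg rose by 2.45 and 1.48, Rara fell by 0.70 and Cdkn1a by 0.33, the 4 of 14 that passed, 28.6% of the list beside 34.3% of all genes. Cdkn1a did not pass in line 1 alone, whereas all 4 passed in line 2 alone. In TRIM24-KO 5 rose and 1 fell with DOX (42.9% beside 16.4%), and in TRIM33-KO 4 rose and 3 fell, beside 36.6% of all genes called.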

How the data were processed

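Each library has a deposited table of raw counts, all whole numbers, for genes and for repeat subfamilies, per the file headers. Per the submitters' processing notes, bcl2fastq 2.20.0, cutadapt 1.18 and STAR 2.7.6a and the build mm10 were used. The counting tool and its annotation are not given in the sources used here, so the handling of reads shared between similar genes, and of strand, is not known. Libraries were strand-specific and rRNA-depleted, per the labels' protocols. Gene identifiers were matched to GENCODE M21 (GRCm38): 54435 with version, 792 without and 260 not at all. Trim28 and Trim33 each overlap another gene but share 0 exon bases with it.

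Each set was fitted apart with edgeR 4.0.16 in R 4.3.3 (TMM factors, filterByExpr, 1 mean per group, quasi-likelihood test, 2-sided, Benjamini-Hochberg over 18060 genes in the WT and DUXBL-KO set and 18079 in the pLV2 set, threshold 0.05), which kept all 4 members. The coefficient of variation was 17.8% in the first set and 8.55% in the second. SE is the log2 fold change divided by the root of F. Unless a line is named, WT pLV2 is the mean of both lines. CPM uses TMM factors over all 24 libraries. The repeat subfamilies used the gene-based factors. The alternatives were RLE size factors, no filter, a replicate block, only the compared groups, DESeq2 1.42.0 (not run for repeats), no CT010467.1, each WT line alone and each library left out. Settings with line 2 as reference and the windows around Trim24 were added after seeing the data. The tests were checked on simulated counts. Members, lists and tests were chosen with earlier results of these data known. In each list and comparison at most 3 called genes per direction with the smallest p were named, and for each member the 3 genes most like it by Pearson r. Some genes that this rule names are not reported here. Replicate pairs of each group differed by more than sampling noise.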

Additional observations from a re-analysis of the deposited data

How the results depend on the processing

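Values are log2 fold changes unless called gene numbers, and the cause of a change was not tested. The balance of all genes called with DOX in WT pLV2 depended on the scaling. In the main fit 2816 rose and 3378 fell. With RLE size factors 3129 rose and 2758 fell, with DESeq2 2719 and 2100, and without CT010467.1 3080 and 2862. Counts of list genes that rose or fell with DOX are from the main fit unless another is named. Of the values with another test or scaling, reference line or filter, 452 kept their direction and their side of the threshold, 14 changed sign, 10 lost their call and 11 gained one with the same sign. Some of those that changed sign also gained a call. Among them were Trim24 in TRIM24-KO in both arms and Trim28 in TRIM33-KO with DOX, all against line 1 alone. With 1 library left out, 350 kept both, 46 changed sign and 20 lost the call. For other genes and repeat subfamilies 698 kept both and 18 lost the call. With DESeq2, the number of genes called was 177 for DUXBL-KO against WT without DOX, 172 for DUXBL-KO against WT with DOX, 1 for interaction of DUXBL-KO with DOX, 196 for interaction of TRIM33-KO with DOX. With DESeq2, Trim66 was -3.33 for DOX in TRIM24-KO, 1.13 for WT pLV2 line 2 against line 1 without DOX, 1.08 for WT pLV2 line 2 against line 1 with DOX. With DESeq2, Trim33 was -0.18 for DOX in TRIM33-KO. With DESeq2, Trim24 was 0.0055 for TRIM24-KO against WT without DOX. With DESeq2, Trim28 was 0.26 for interaction of TRIM33-KO with DOX, 0.18 for TRIM33-KO against WT pLV2 line 2 alone with DOX. With RLE size factors, Trim33 was -0.18 for DOX in TRIM33-KO. With RLE size factors, Trim24 was 0.0055 for TRIM24-KO against WT without DOX. With RLE size factors, the number of genes called was 45 for interaction of TRIM24-KO with DOX. Against WT pLV2 line 1 alone, Trim33 was -0.18 for DOX in WT pLV2, -0.069 for interaction of TRIM33-KO with DOX. Against WT pLV2 line 1 alone, the number of genes called was 2942 for DOX in WT pLV2, 36 for interaction of TRIM24-KO with DOX, 7390 for TRIM33-KO against WT without DOX, 7801 for TRIM33-KO against WT with DOX, 292 for interaction of TRIM33-KO with DOX. Against WT pLV2 line 1 alone, Trim24 was 0.42 for TRIM24-KO against WT without DOX, 0.32 for TRIM24-KO against WT with DOX. Against WT pLV2 line 1 alone, Trim28 was -0.15 for TRIM33-KO against WT with DOX. With line 2 alone as reference, Trim24 was -0.47 for TRIM24-KO against WT without DOX, -0.61 for TRIM24-KO against WT with DOX. With line 2 alone as reference, Trim28 was -0.028 for TRIM33-KO against WT without DOX. With line 2 alone as reference, Trim66 was -0.35 for TRIM33-KO against WT without DOX, -0.49 for TRIM33-KO against WT with DOX. With line 2 alone as reference, the number of genes called was 274 for TRIM33-KO against WT without DOX, 646 for TRIM33-KO against WT with DOX, 0 for interaction of TRIM33-KO with DOX. Without a filter on low counts, Trim28 was 0.34 for DOX in WT, 0.43 for DOX in DUXBL-KO, 0.37 for DUXBL-KO against WT without DOX, 0.46 for DUXBL-KO against WT with DOX, -0.017 for TRIM33-KO against WT with DOX. Without a filter on low counts, Trim33 was 0.0018 for DOX in WT, -0.0066 for interaction of DUXBL-KO with DOX, -0.046 for interaction of TRIM33-KO with DOX, -0.21 for WT pLV2 line 2 against line 1 without DOX. Without a filter on low counts, the number of genes called was 1110 for DOX in WT, 1540 for DOX in DUXBL-KO, 586 for DUXBL-KO against WT without DOX, 908 for DUXBL-KO against WT with DOX, 17 for interaction of DUXBL-KO with DOX, 224 for interaction of TRIM24-KO with DOX, 350 for interaction of TRIM33-KO with DOX, 649 for TRIM33-KO against WT pLV2 line 2 alone without DOX, 1144 for TRIM33-KO against WT pLV2 line 2 alone with DOX. Without a filter on low counts, Trim24 was 0.0056 for TRIM24-KO against WT without DOX. With only the compared groups fitted, the number of genes called was 1 for DOX in WT, 0 for DUXBL-KO against WT without DOX, 1 for DUXBL-KO against WT with DOX, 41 for interaction of TRIM24-KO with DOX. With only the compared groups fitted, Trim33 was -0.15 for DOX in TRIM33-KO. With only the compared groups fitted, Trim24 was 0.39 for TRIM33-KO against WT pLV2 line 2 alone without DOX. With the replicate block, the number of genes called was 961 for DOX in WT, 1594 for DOX in DUXBL-KO, 440 for DUXBL-KO against WT without DOX, 485 for DUXBL-KO against WT with DOX. With the replicate block, Trim28 was 0.44 for DOX in DUXBL-KO, 0.47 for DUXBL-KO against WT with DOX. Without CT010467.1, Trim33 was -0.20 for DOX in TRIM24-KO. Without CT010467.1, Trim24 was 0.014 for TRIM24-KO against WT without DOX. Without CT010467.1, the number of genes called was 47 for interaction of TRIM24-KO with DOX. The labels state no pairing by replicate number. Deviations of same-numbered libraries correlated at 0.24 to 0.53 over all 6 pairs of groups in the WT and DUXBL-KO set and at -0.03 to 0.17 over 28 in the pLV2 set. The block moved calls in the first set as given, and in the pLV2 set it changed no call of a member. Leaving out 1 library in turn, the number of genes called ranged over 2 to 635 for DOX in WT, 0 to 0 for DUXBL-KO against WT without DOX, 0 to 0 for DUXBL-KO against WT with DOX, 496 to 563 for DOX in DUXBL-KO, 20 to 73 for interaction of TRIM24-KO with DOX, 28 to 139 for interaction of TRIM33-KO with DOX, 1938 to 2659 for DOX in TRIM24-KO, 2104 to 4551 for TRIM33-KO against WT without DOX, 4392 to 5163 for DOX in TRIM33-KO, 2719 to 4861 for TRIM33-KO against WT with DOX, 131 to 312 for TRIM33-KO against WT pLV2 line 2 alone without DOX, 124 to 546 for TRIM33-KO against WT pLV2 line 2 alone with DOX. Leaving out 1 library in turn, Trim33 ranged over -0.021 to 0.010 for DUXBL-KO against WT without DOX, -0.042 to 0.059 for interaction of DUXBL-KO with DOX, -0.064 to 0.035 for DOX in WT, -0.057 to 0.039 for DUXBL-KO against WT with DOX, -0.058 to 0.012 for DOX in DUXBL-KO, -0.049 to 0.070 for interaction of TRIM33-KO with DOX, -0.23 to -0.19 for WT pLV2 line 2 against line 1 without DOX, -0.30 to -0.13 for DOX in TRIM33-KO. Leaving out 1 library in turn, Trim24 ranged over -0.092 to 0.14 for interaction of DUXBL-KO with DOX, -0.041 to 0.16 for DOX in WT, -0.045 to 0.19 for DUXBL-KO against WT without DOX, -0.037 to 0.20 for DOX in DUXBL-KO, -0.11 to 0.10 for TRIM24-KO against WT without DOX, -0.029 to 0.12 for DOX in WT pLV2, -0.027 to 0.17 for interaction of TRIM33-KO with DOX, 0.29 to 0.52 for TRIM33-KO against WT pLV2 line 2 alone without DOX, 0.36 to 0.56 for TRIM33-KO against WT pLV2 line 2 alone with DOX. Leaving out 1 library in turn, Trim66 ranged over -2.59 to 1.43 for DOX in WT, -1.61 to 1.01 for DUXBL-KO against WT without DOX, -1.53 to 2.50 for interaction of DUXBL-KO with DOX, -1.30 to 1.63 for DUXBL-KO against WT with DOX, -0.77 to 0.38 for DOX in DUXBL-KO, 0.92 to 1.35 for WT pLV2 line 2 against line 1 without DOX, -0.16 to 0.27 for TRIM33-KO against WT with DOX, 0.67 to 1.52 for WT pLV2 line 2 against line 1 with DOX, -0.37 to 0.052 for interaction of TRIM33-KO with DOX, -5.95 to -2.43 for DOX in TRIM24-KO. Leaving out 1 library in turn, Trim28 ranged over -0.10 to 0.30 for interaction of DUXBL-KO with DOX, -0.0059 to 0.017 for TRIM33-KO against WT with DOX, -0.21 to -0.18 for TRIM33-KO against WT without DOX. Trim66, at 0 to 72 counts, is limited by depth: a count of 0 allows up to 3 counts.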

Other observations

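Endogenous retroviruses, the elements that TRIM28 silences, were counted in the same libraries among repeat subfamilies of all kinds. Of these subfamilies, retroviral or not, 972 were tested in the pLV2 set. MERVL-int, the internal part of the retrovirus that marks the 2C state, rose with DOX by 8.05 ± 0.17 (SE) on the log2 scale in WT pLV2, 7.88 ± 0.24 in TRIM24-KO and 9.49 ± 0.26 in TRIM33-KO (edgeR's quasi-likelihood test, adjusted p = 2.00e-16, 7.88e-14 and 1.06e-14). The rise was 1.44 ± 0.22 larger in TRIM33-KO than in WT pLV2 (adjusted p = 6.43e-04), and that of IAPEz-int, an intracisternal A particle element, was 1.09 ± 0.16 larger (adjusted p = 6.43e-04). Against the mean of both WT lines the difference was a broad one, with 364 of the 972 subfamilies called for a larger and 3 for a smaller response in TRIM33-KO. For subfamilies this difference in response is not given against line 2 alone. Among genes the same interaction had 104 calls against both lines and 0 against line 2 alone. Subfamilies called with DOX numbered 729 higher and 5 lower for WT pLV2. The numbers were 751 and 11 for TRIM33-KO, beside 530 and 9 for TRIM24-KO. With DOX 656 subfamilies were higher and 5 lower in TRIM33-KO than in WT pLV2, 68.0% of those tested. Between the WT lines with DOX, 501 subfamilies were higher and 10 lower in line 2 than in line 1. In TRIM33-KO with DOX MERVL-int was higher by 1.45 against both lines and by 0.70 against line 2 alone (adjusted p = 8.37e-03). In the line labelled TRIM24-KO without DOX, 36 subfamilies were higher and 7 lower, 4.42% of those tested. ETnERV-int was higher by 1.71 ± 0.08 (adjusted p = 1.46e-10) and MMERGLN-int by 1.65 ± 0.12 (adjusted p = 1.56e-08), while IAPEz-int (0.14, adjusted p = 0.540) and MERVL-int (0.06, adjusted p = 0.878) did not pass.

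Other genes of the TRIM superfamily numbered 64, of which 44 were tested in the pLV2 set. With DOX in WT pLV2 5 rose and 16 fell, 47.7% beside 34.3% of all genes. Trim52 rose by 2.29 and Trim68 by 0.81, while Trim2 fell by 0.64 and Trim16 by 1.16. In TRIM24-KO without DOX 11 rose and 11 fell, beside 43.4% of all genes called, among them Trim52 (1.83), Trim44 (-0.69) and Trim12c (-2.18), and these 3 passed against each WT line alone. In TRIM33-KO without DOX 2 rose and 8 fell against both WT lines (22.7% beside 23.9%), among them Trim37 (0.47), Trim8 (-0.63) and Trim26 (-0.30). Against line 2 alone, where 1.52% of all genes were called, edgeR called 0 of the 44, with Trim37 at 0.01, Trim8 at -0.13 and Trim26 at -0.06.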
